A study of Mus musculus with 9 samples.

Results

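The genes described here are 31 genes of cholesterol and fatty acid synthesis, followed in the tumour cells of mouse mammary tumours with or without knockout of the histone methyltransferase genes Kmt2c or Kmt2d. They were taken by symbol from the 32286 features measured, each matched 1 row, and they fall into 5 groups along the pathway: 8 genes of the mevalonate stage, 3 from squalene to lanosterol, 9 from lanosterol to cholesterol, 5 regulators or sterol carriers, and 6 genes of fatty acid synthesis. Single cells came from 9 primary tumours, 3 per genotype (WT, Kmt2c KO and Kmt2d KO), which grew after injection of 168FARN cells, a mouse mammary carcinoma line, into the mammary fat pad of Balb/c mice. The study's methods give the hosts as females bought at 5 to 6 weeks of age, and state that each knockout was a sorted pool after transient transfection of Cas9 with guides against exon 1, while a histone H2B–mCherry reporter (H2BMc in the feature table) was delivered by lentivirus to mark the tumour cells. No other allele or drug is listed for any group. No separately made knockout lines are described, so the tumours of a group repeat the mouse but not the knockout. The study reports reduced protein in the knockout cells, and in the Kmt2c pool not all sequenced reads were mutant. The libraries are numbered 1 to 3 within each genotype in the order of the aggregation table, and whether these numbers match the replicate numbers of the sample titles is not known.

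Cholesterol is built from acetyl-CoA by way of mevalonate, isoprenoids, squalene and lanosterol, with the later steps in the endoplasmic reticulum. When membrane sterol runs low, the escort protein SCAP carries the transcription factors SREBP-1 and SREBP-2 (encoded by Srebf1 and Srebf2) to the Golgi, where they are cut and released to the nucleus, and INSIG-1 holds them back when sterol is plentiful. SREBP-2 acts mainly on sterol genes and SREBP-1 mainly on fatty acid genes, and growing cells draw on both for new membrane.

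Because these genes are commonly described as a set that moves together, the stretch just before the transcription start is shown for 6 of them. Of the 31 genes, 25 had a promoter window of 300 bases (250 before and 50 after the start) in the RefSeq table of GRCm38.p6, in 31 windows in all, and Fdps, Fdft1, Sqle, Scd1, Scd2 and Stard4 had none. The windows were searched on both strands for a sterol regulatory element, TCACNCCAC, and for the box bound by NF-Y, CCAAT. No site of one motif overlaps a site of the other in the stretches shown, and Fasn holds 2 NF-Y boxes on opposite strands that overlap. The runs below cover the 150 bases before the start, 5′ to 3′ on the gene's own strand, with either motif in capitals. Hmgcs1 is shown as the only window with the sterol regulatory element, Idi1, Msmo1 and Fasn as enzymes of 3 stages with the NF-Y box, and Acat2 and Tm7sf2 as the 2 genes that were lower in Kmt2c KO tumour cells.
Hmgcs1, chr13:119690201-119690350, plus strand: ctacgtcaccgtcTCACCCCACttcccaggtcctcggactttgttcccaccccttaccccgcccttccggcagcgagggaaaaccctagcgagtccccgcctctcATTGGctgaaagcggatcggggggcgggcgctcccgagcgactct
Idi1, chr13:8885456-8885605, plus strand: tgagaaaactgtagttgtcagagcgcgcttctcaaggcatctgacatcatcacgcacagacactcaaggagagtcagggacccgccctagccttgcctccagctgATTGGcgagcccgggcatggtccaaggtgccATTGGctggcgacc
Msmo1, chr8:64733579-64733728, minus strand: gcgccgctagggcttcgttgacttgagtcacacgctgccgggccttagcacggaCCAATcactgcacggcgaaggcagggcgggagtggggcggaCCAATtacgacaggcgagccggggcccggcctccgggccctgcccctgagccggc
Fasn, chr11:120824548-120824697, minus strand: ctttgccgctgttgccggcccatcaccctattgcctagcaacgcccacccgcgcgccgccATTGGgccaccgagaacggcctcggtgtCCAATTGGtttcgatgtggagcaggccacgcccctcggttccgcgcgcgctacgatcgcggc
Acat2, chr17:12960726-12960875, minus strand: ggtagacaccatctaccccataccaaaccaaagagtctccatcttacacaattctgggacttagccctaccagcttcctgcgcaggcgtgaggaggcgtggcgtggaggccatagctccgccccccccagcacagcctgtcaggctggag
Tm7sf2, chr19:6067851-6068000, minus strand: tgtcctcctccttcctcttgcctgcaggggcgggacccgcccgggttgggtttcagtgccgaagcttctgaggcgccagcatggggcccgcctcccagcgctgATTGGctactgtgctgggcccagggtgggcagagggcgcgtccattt
The sterol regulatory element was found in 1 of the 31 windows, that of Hmgcs1, where it begins at base -137 from the start. Of all 32851 windows of this length in the table, 1.24% hold it. The NF-Y box, CCAAT on either strand and so CCAAT or ATTGG as printed on the gene's own strand, was found in 22 of the 31 windows, against 37.4% of all windows. By gene, the box was found for 21 of the 25, for which no share over all genes is given. The genes without it in these windows are Acat2, Acaca, Elovl6 and Scap.

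The total of 585680611 unique molecular identifiers (UMIs, each counting 1 captured RNA molecule) was spread over 89147 barcodes, of which 58645 passed the study's limits on genes per cell and mitochondrial share. A cell was taken as a tumour cell if it held at least 1 H2BMc UMI and at most 1 detected marker of each of the endothelial, macrophage, and T and NK lists, which gave 15928 cells. A library had 344 to 3309 of them and 9257884 to 43525818 UMIs over them. H2BMc was found in 36.3% of cells with Krt8, an epithelial keratin (median 10390 UMIs a cell), and in 2.67% of 1124 Krt8-negative cells with endothelial or macrophage markers (median 2947.5 UMIs). Krt8 was present at 234 to 572 CPM (a gene's UMIs scaled to a fixed total over the library's tumour cells), whereas Krt18, its usual partner, lay at 0 to 0.483 CPM. Kmt2c RNA in tumour cells was at 46.9 to 48.95 CPM in WT and 42.4 to 57.6 CPM in Kmt2c KO, and Kmt2d RNA at 14.7 to 21.25 CPM in WT and 25.04 to 31.9 CPM in Kmt2d KO. RNA counts need not fall after a small frameshift in exon 1, so these levels do not check the labels. The genotypes differed in cell depth, in the share of cells lost to the mitochondrial limit and in 2 other programmes. The median tumour cell had 13610 to 24080.5 UMIs in the WT libraries, 8563 to 11641.5 in Kmt2c KO and 11128 to 14313 in Kmt2d KO. The mitochondrial limit removed 11.6 to 33.8% of the barcodes in WT, the most in library 3, 7.78 to 9.96% in Kmt2c KO and 13.3 to 17.6% in Kmt2d KO. The summed CPM of 14 interferon-response genes was 453 to 649 in WT, 3261 to 4314 in Kmt2c KO, and 898, 2795 and 936 in Kmt2d KO libraries 1 to 3, where library 2 stands apart from the other two. That of 11 hypoxia-response genes was 1017 to 1116 in WT, 1777 to 2701 in Kmt2c KO and 850 to 1498 in Kmt2d KO. For 10 cycling genes the groups overlapped. Their sums in libraries 1 to 3 were 1296, 1034 and 887 CPM in WT and 1313, 882 and 1034 CPM in Kmt2c KO. In Kmt2d KO they were 1167, 1589 and 1152 CPM. The 8 macrophage markers summed in tumour cells to 3.22 to 4.58 CPM in WT and 6.47 to 7.73 CPM in Kmt2c KO. In Kmt2d KO libraries 1 to 3 they summed to 2.64, 7.94 and 3.56 CPM.

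All 31 genes passed the filter on low counts in tumour cells, with 70 to 9741 UMIs per gene and library. A lower level can reflect fewer cells with the RNA or less RNA in each cell, which summed counts do not tell apart. The plot of levels by library gives every gene in pathway order.

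**Figure D1:**
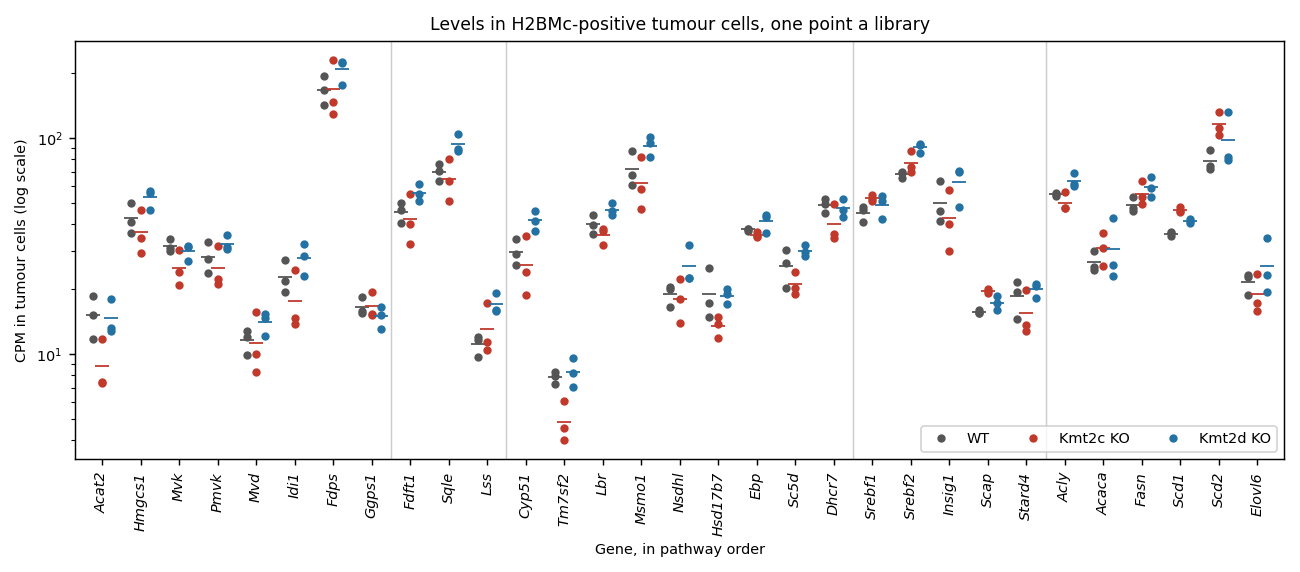
Level of each of the 31 genes in H2BMc-positive tumour cells, in CPM on a log axis, with 1 point per library (WT grey, Kmt2c KO red, Kmt2d KO blue), short bars for group means and vertical lines between the 5 pathway groups. Scap and Scd1 are higher and Tm7sf2 lower in all 3 Kmt2c KO libraries than in any WT library. Heights are not to be compared between genes.

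Summed over each pathway group, the sterol stages overlapped between WT and Kmt2c KO libraries and were higher on average in Kmt2d KO. The mevalonate genes summed to 336 ± 44.9 CPM (SD, n = 3) in WT, to 311 ± 83.8 CPM in Kmt2c KO and to 395 ± 46.4 CPM in Kmt2d KO. From squalene to lanosterol the sums were 127 ± 12.1, 120 ± 29.6 and 167 ± 16.8 CPM in the same order. From lanosterol to cholesterol they were 300 ± 33.6, 257 ± 43.3 and 352 ± 20.9 CPM. For these last 2 stages every Kmt2d KO library was above every WT library, narrowly so from lanosterol to cholesterol (338 against 336 CPM at the closest), and in the mevalonate stage the groups overlapped. The 6 fatty acid genes summed to 266 ± 11.2 CPM in WT, with 318 ± 23.1 in Kmt2c KO and 318 ± 53.2 in Kmt2d KO, and here every knockout library was above every WT library. The margin was narrow, with Kmt2d KO library 1 at 279.5 CPM and WT library 1 at 277.0 CPM. The 5 regulators and carriers had sums of 240 ± 15.6 CPM in Kmt2d KO, 198 ± 14.3 CPM in WT and 207 ± 28.0 CPM in Kmt2c KO, again with every Kmt2d KO library above every WT library. Genes of high level weigh most in such sums. Fdps alone had a mean of 168 CPM in WT. Among the fatty acid genes, Scd2 had means of 78.0 CPM in WT and 116 CPM in Kmt2c KO. Acaca, Fasn and Scd1 also had higher means in Kmt2c KO than in WT. Acly (50.3 against 55.0 CPM) and Elovl6 (18.9 against 21.6 CPM) had lower means in Kmt2c KO. These sums are descriptions of chosen genes in plain CPM and were not tested.

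**Figure D2:**
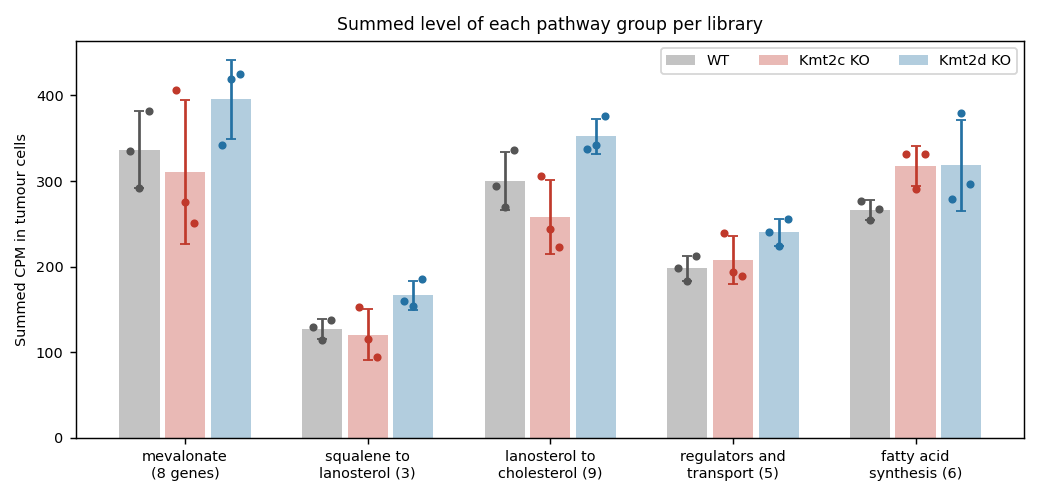
Summed CPM of each pathway group in tumour cells, with bars for the mean of 3 libraries, error bars of 1 SD and 1 point per library. In the lanosterol to cholesterol stage, the 3 Kmt2d KO libraries (338 to 376 CPM) lie above the 3 WT libraries (269 to 336 CPM), and Kmt2c KO library 1 (306 CPM) lies above libraries 2 and 3.

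Within each genotype, 1 library tended to be the highest for most sterol enzymes at once. Of the 20 enzymes from Acat2 to Dhcr7, 17 were highest in Kmt2c KO library 1, where 28.9% of all genes tested had their highest value of that group. WT library 3, which lost the largest share of barcodes to the mitochondrial limit (33.8%), was highest for 16 of the 20, against 29.1% of all genes, and Kmt2d KO library 3 for 13 of the 20, against 30% of all genes. Fdps, which makes farnesyl diphosphate, shows the size of this spread, with 230.5, 146 and 130 CPM over the Kmt2c KO libraries and 168, 142 and 193 CPM over those of WT. The first Kmt2c KO library was thus above every WT library for this gene and the third below every one.

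Comparing Kmt2c KO with WT, 5 of the 31 genes passed the test (edgeR quasi-likelihood test over 13936 genes, Benjamini-Hochberg adjusted p under 0.05), where 19% of all genes tested did. The 3 that rose (10.2% of all genes rose) were Scd1, Scd2 and Scap, and the 2 that fell (8.73% of all genes fell) were Acat2 and Tm7sf2. These shares are no higher than over all genes. For 5 of the 31 every Kmt2c KO library was above every WT library (21.1% of all genes) and for 4 every one was below (21.4% of all genes), so separated libraries were no more frequent here than elsewhere. Of the 20 sterol enzymes, 17 had a log2 fold change below 0, with a median of -0.16, beside 0.01 over all genes tested.

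Scd1 encodes a stearoyl-CoA desaturase, which makes oleate from stearate. In CPM, it was at 45.7, 47.8 and 45.8 in Kmt2c KO libraries 1 to 3 and at 35.3, 36.7 and 36.4 in WT. The libraries do not overlap and those of each group lie close together, and the log2 fold change was 0.37 ± 0.08 (SE; adjusted p = 0.00890). Kmt2d KO lay between, at 41.5, 42.5 and 40.3 CPM, again above every WT library, with a log2 fold change of 0.17 ± 0.08 (adjusted p = 0.285). Among the 5 genes called, Scd1 was the 1 that stayed called under all 18 other settings, in which its log2 fold change ran from 0.33 to 0.50 and its adjusted p from 0.00225 to 0.0498.

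Scd2, a second desaturase gene, was at 111, 103 and 133 CPM in Kmt2c KO and at 87.8, 72.2 and 74.0 CPM in WT, a log2 fold change of 0.58 ± 0.18 (adjusted p = 0.0460). In Kmt2d KO it was at 81.8, 132 and 78.8 CPM, where library 2 was level with the Kmt2c KO libraries and libraries 1 and 3 with WT. The Scd2 call was lost when any 1 library of Kmt2c KO or of WT was left out, in Krt8-positive cells and within cells of 5000 to 20000 UMIs, with adjusted p of up to 0.148 over these settings. The fold change stayed near its size, at 0.49 to 0.64 when 1 library was left out, 0.47 in Krt8-positive cells and 0.52 within 5000 to 20000 UMIs. Kmt2d KO library 2 is also the Kmt2d KO library with the high interferon-response level; its part in the Scd2 level was not tested. Scd1 and Scd2 are similar in sequence, and how reads that fit both were counted is not stated in the labels or methods.

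Scap, the escort of the SREBPs, was at 20.2, 19.2 and 19.7 CPM in Kmt2c KO and at 15.5, 15.5 and 16.1 CPM in WT. The groups do not overlap, with a log2 fold change of 0.34 ± 0.09 (adjusted p = 0.0268). Within tumour cells of 5000 to 20000 UMIs, where depth is closer between genotypes, the log2 fold change was -0.086 ± 0.15 and not called, so both call and direction were lost there. The call also ended without Kmt2c KO library 1 or 2 or any WT library (adjusted p of up to 0.0974, although the fold change stayed at 0.31 to 0.37 when 1 library was left out), with no low-count filter (0.0534), with at least 2 H2BMc UMIs (0.0507) and in cells with no cycling-list UMI (0.704).

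Acat2, the cytosolic thiolase that opens the mevalonate stage, was at 11.7, 7.4 and 7.4 CPM in Kmt2c KO and at 15.2, 11.8 and 18.7 CPM in WT, a log2 fold change of -0.76 ± 0.23 (adjusted p = 0.0440). Tm7sf2, a sterol C14 reductase, was at 6.1, 4.6 and 4.0 CPM in Kmt2c KO and at 7.3, 7.9 and 8.3 CPM in WT, a log2 fold change of -0.67 ± 0.19 (adjusted p = 0.0313). In both genes every Kmt2c KO library lay below every WT library, by a narrow margin for Acat2 (11.7 against 11.8 CPM). The same held for Ebp and Hsd17b7, which did not pass. In Kmt2d KO, Acat2 was at 13.2, 12.8 and 18.1 CPM and Tm7sf2 at 8.2, 7.1 and 9.6 CPM, within or across the WT range. Within cells of 5000 to 20000 UMIs the Kmt2c KO fold changes were -0.03 for Acat2 and -0.038 for Tm7sf2 (adjusted p = 0.971 and 0.965), and within cells with no UMI of the cycling list they were -0.21 and -0.23 (adjusted p = 0.618 and 0.684). Leaving out Kmt2c KO library 2 or 3 or WT library 1 or 3 ended both calls, WT library 2 ended that of Tm7sf2 and Kmt2d KO library 1 that of Acat2, with fold changes of -1.02 to -0.57 for Acat2 and -0.86 to -0.53 for Tm7sf2 over the 9 libraries left out in turn. Both calls also ended in Krt8-positive cells (adjusted p = 0.125 for Acat2 and 0.216 for Tm7sf2), and that of Tm7sf2 with at least 2 H2BMc UMIs (adjusted p = 0.103).

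The same restriction to 5000 to 20000 UMIs turned the direction of the sterol enzymes as a group. There, 16 of the 20 had a log2 fold change above 0 in Kmt2c KO against WT, with a median of 0.27, and none passed the test (2 of 20 were higher at an unadjusted p under 0.05, where 14% of all genes were). The restricted set held 10828 of the 15928 tumour cells, with medians of 9485.5 to 10962.5 UMIs in Kmt2c KO and 11521.5 to 14313.5 in WT. The smallest library held 126 cells there, against 344 of all tumour cells. The upper limit did not fall evenly on the genotypes. Cycling-high cells, defined below, had library medians of 22849 to 37319.5 UMIs in WT and 13706 to 16121 in Kmt2c KO. A larger share of them was thus removed from WT, and the part of this in the direction was not tested. Scd1 (0.43) and Srebf2 (0.49) were the 2 genes called in the restricted set, where 8.18% of all genes were called, 3.81% higher. In cells with no cycling-list UMI, 10 of the 20 were above 0 and 10 below, and Scd1 and Scd2 were called, beside 14.9% of all genes (7.94% higher). The direction of the sterol enzymes thus differed between sets of cells that differ both in depth and in the cycling cells they keep. The part of either was not tested. The number of genes called also rested on single libraries. It was 1 without Kmt2c KO library 2, WT library 1 or WT library 3 (10.9%, 10.1% and 9.89% of all genes were called there) and 2 without Kmt2c KO library 3 or WT library 2 (11.6% and 9.01%). It was 6 without Kmt2c KO library 1, of which 5 were lower (16.3% of all genes called), and 6 without Kmt2d KO library 2, where the share of all genes rose further, to 29.2%.

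**Figure D3:**
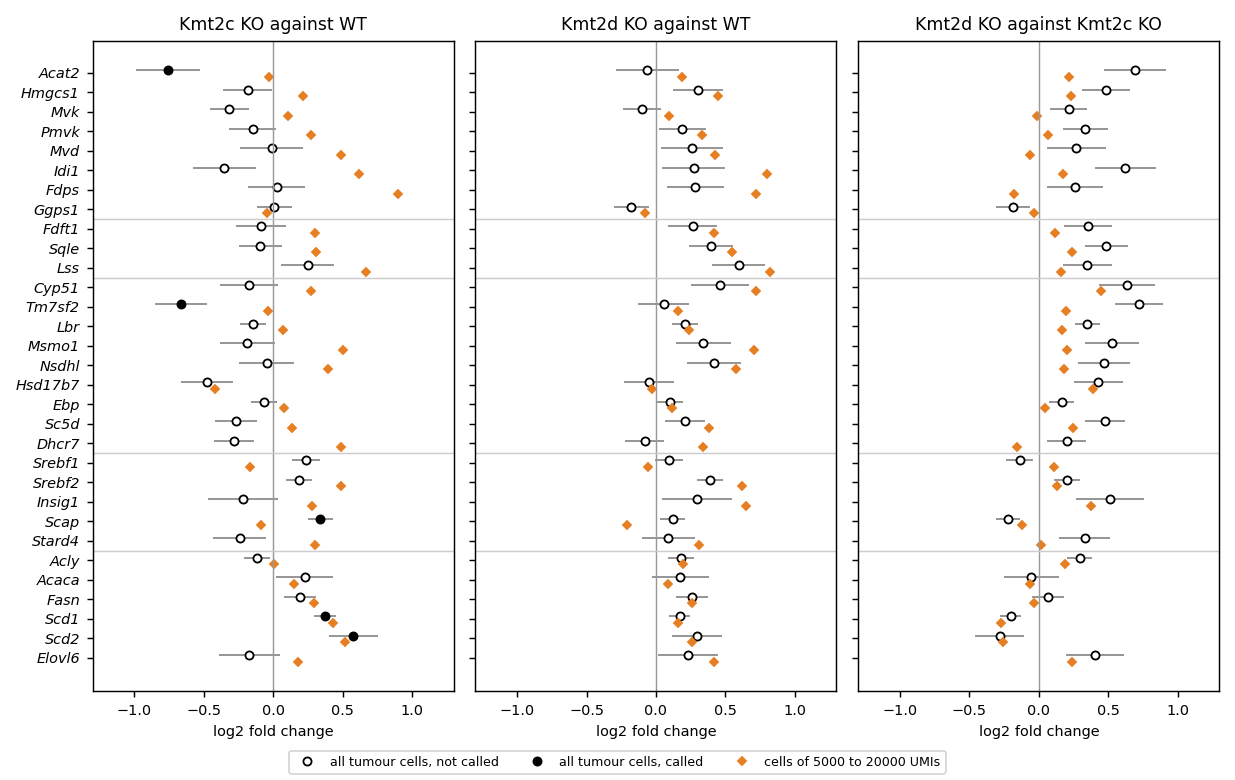
Log2 fold change of each gene in tumour cells for the 3 genotype comparisons, with circles for all tumour cells (filled where called, bars of 1 SE) and orange diamonds for cells of 5000 to 20000 UMIs, with grey lines between the 5 pathway groups. In Kmt2c KO against WT the sterol enzymes cross from mostly below 0 (17 of 20) to mostly above 0 (16 of 20).

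Comparing Kmt2d KO with WT, none of the 31 genes passed the test, where 2.08% of all genes did, and 6 were higher at an unadjusted p under 0.05, where 8.75% of all genes were. By direction, 26 of the 31 were above 0, with a median log2 fold change of 0.21, beside 0.01 over all genes. For 10 of the 31 every Kmt2d KO library was above every WT library (13.6% of all genes), and for 0 of the 31 every one was below (10.2% of all genes). The count of members above 0 was 27 within cells of 5000 to 20000 UMIs and 28 in cells with no cycling-list UMI, with 0 called in either set (0.49% and 1.02% of all genes).

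Srebf2, the gene of SREBP-2, came nearest to the threshold. It was at 85.2, 94.4 and 93.0 CPM in Kmt2d KO and at 69.1, 65.4 and 70.0 CPM in WT, a log2 fold change of 0.39 ± 0.09 (adjusted p = 0.0641). All 3 Kmt2d KO libraries lie above the WT libraries, and DESeq2 called the gene (adjusted p = 0.0131), as did the fit with no low-count filter (adjusted p = 0.0376) and that without Kmt2c KO library 1 (adjusted p = 0.0391). None of the other settings called it, with adjusted p of up to 0.122, and of up to 0.228 when 1 library was left out. In Kmt2c KO it was at 87.0, 70.0 and 73.8 CPM (log2 fold change 0.19 ± 0.09, adjusted p = 0.188), with library 2 just above the highest WT library.

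Scap, described above for Kmt2c KO, was at 16.1, 18.7 and 17.3 CPM in Kmt2d KO, barely above every WT library at its lowest. Its log2 fold change there of 0.12 ± 0.09 did not pass (adjusted p = 0.553). Srebf1, Insig1 and Stard4 were less separated than Srebf2. Srebf1 was at 48.0, 46.7 and 40.9 CPM in WT, 54.8, 51.2 and 52.2 CPM in Kmt2c KO and 50.9, 42.5 and 54.0 CPM in Kmt2d KO. The Kmt2c KO libraries all lie above WT, but the log2 fold change of 0.23 ± 0.10 did not pass (adjusted p = 0.131). Insig1, whose protein retains SCAP in the endoplasmic reticulum and whose gene is itself an SREBP target, was at 45.8, 41.5 and 63.4 CPM in WT, 57.8, 40.2 and 30.1 CPM in Kmt2c KO and 69.6, 47.8 and 70.8 CPM in Kmt2d KO. All 3 groups overlap, and its fold changes of -0.22 ± 0.25 and 0.30 ± 0.25 on the log2 scale did not pass (adjusted p = 0.584 and 0.595). Stard4, a soluble sterol carrier, was at 12.8 to 21.7 CPM in the 9 libraries, with overlapping groups.

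Hmgcs1, which makes HMG-CoA, stands for the mevalonate stage. It was at 41.0, 36.3 and 50.2 CPM in WT, at 46.7, 34.7 and 29.4 CPM in Kmt2c KO and at 46.6, 56.0 and 57.1 CPM in Kmt2d KO. The groups overlap, with log2 fold changes against WT of -0.18 ± 0.18 in Kmt2c KO (adjusted p = 0.505) and 0.30 ± 0.18 in Kmt2d KO (adjusted p = 0.426). Past squalene, Lss, the lanosterol synthase, was at 12.1, 9.7 and 11.7 CPM in WT and at 15.9, 16.1 and 19.2 CPM in Kmt2d KO. Its log2 fold change of 0.60 ± 0.19 was the largest of the 31 in that comparison and did not pass (adjusted p = 0.145).

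The entry genes of fatty acid synthesis did not pass in either knockout against WT. Acly, which splits citrate into cytosolic acetyl-CoA, was at 53.9, 55.7 and 55.3 CPM in WT, 56.1, 47.5 and 47.4 CPM in Kmt2c KO and 59.9, 61.5 and 68.8 CPM in Kmt2d KO. Its log2 fold changes of -0.11 ± 0.09 and 0.18 ± 0.09 did not pass (adjusted p = 0.422 and 0.357), although every Kmt2d KO library was above WT. Fasn, the fatty acid synthase, was at 47.4, 45.8 and 53.3 CPM in WT, 63.5, 49.4 and 53.4 CPM in Kmt2c KO and 53.6, 66.0 and 59.0 CPM in Kmt2d KO, with log2 fold changes of 0.20 ± 0.12 and 0.26 ± 0.12 (adjusted p = 0.260 and 0.280). Its Kmt2d KO libraries also all lay above WT, by a narrow margin (53.6 against 53.3 CPM). Acaca, the acetyl-CoA carboxylase, and Elovl6, an elongase, overlapped between all groups, and in Kmt2d KO their highest values (42.6 and 34.4 CPM) were in library 2.

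Set directly against each other, Kmt2d KO was above Kmt2c KO for 25 of the 31 genes and for 19 of the 20 sterol enzymes, with a median log2 fold change of 0.39 over the sterol enzymes and -0.002 over all genes tested. None of the 31 passed the test, where 0.0646% of all genes did, and 11 of the 20 sterol enzymes were higher at an unadjusted p under 0.05, where 8.14% of all genes were. For 9 of the 20 every Kmt2d KO library was above every Kmt2c KO library (10.6% of all genes). The stage from lanosterol to cholesterol was above 0 in all 9 of its genes. Tm7sf2 was at 0.72 ± 0.17 on the log2 scale (adjusted p = 0.0921), Acat2 at 0.69 ± 0.22 (adjusted p = 0.158), Cyp51, the lanosterol demethylase, at 0.64 ± 0.20 (adjusted p = 0.158) and Lbr at 0.35 ± 0.09 (adjusted p = 0.108). Within cells of 5000 to 20000 UMIs 15 of the 20 were above 0, with a median of 0.17 and with none of them at an unadjusted p under 0.05 (11.7% of all genes were).

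This comparison turned on Kmt2d KO library 2. Without it, 10 genes were called higher and 1 lower in Kmt2d KO than in Kmt2c KO, where 9.04% of all genes were called higher and 10.1% lower. The 10 were Acat2, Sqle, Cyp51, Tm7sf2, Lbr, Nsdhl, Ebp, Sc5d, Insig1 and Acly, with log2 fold changes of 0.26 (Ebp) to 0.84 (Tm7sf2), and 6 of them act between lanosterol and cholesterol. The 1 lower gene was Scd2, at -0.55 ± 0.10 (adjusted p = 0.0031). Over all genes 9 were called with library 2 and 2698 without it.

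Within each library, tumour cells with much cycling-gene RNA had more RNA of nearly all sterol enzymes. In each library the 25% of tumour cells with the largest share of UMIs on 10 cycling genes was set against the cells with none, with the library as a block. All 31 genes passed the test, 26 higher and 5 lower in the cycling-high cells, where 76.4% of all genes were called, 37.2% higher and 39.2% lower. The 20 sterol enzymes summed to 404 to 437 CPM in the low cells and 874.5 to 1072 CPM in the high cells of the WT libraries, 365 to 509 and 843 to 1104 CPM in Kmt2c KO, and 502 to 575 and 1043 to 1286 CPM in Kmt2d KO. The level in the high cells was thus 2.00 to 2.65 times that in the low cells over the 9 libraries, and 2.12 to 2.94 times with TMM scaling, the scaling of the tests, which was applied to these library values after seeing the data.

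The largest effects were on Fdps at 1.92 ± 0.07 on the log2 scale, Idi1, the isopentenyl diphosphate isomerase, at 1.85 ± 0.08, Acat2 at 1.77 ± 0.09, Lbr, a lamin B receptor that is also a sterol reductase, at 1.71 ± 0.05 and Msmo1, the sterol C4 oxidase, at 1.56 ± 0.05 (the highest adjusted p of these, for Acat2, was 1.6e-11). Of the 20 sterol enzymes 19 were higher, the exception being Ggps1, which makes geranylgeranyl diphosphate for protein prenylation rather than sterol, at -0.37 ± 0.07. The regulators split, with Srebf2 (0.58 ± 0.05) and Insig1 (0.98 ± 0.07) higher and Srebf1 (-0.85 ± 0.05) and Scap (-0.39 ± 0.07) lower. The fatty acid genes split too. Elovl6 was higher by 1.32 ± 0.06, Fasn by 0.53 ± 0.06, Acly by 0.48 ± 0.05 and Acaca by 0.28 ± 0.05, whereas Scd1 (-0.15 ± 0.05) and Scd2 (-0.11 ± 0.04) were lower.

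Cycling-high cells were also deeper, with library medians of 13706 to 37319.5 UMIs against 6813 to 15333 in the low cells. In all 9 libraries they had a lower median mitochondrial share (2.03 to 3.71%, against 3.09 to 4.56%) and less interferon-list RNA (310 to 3605 CPM, against 587 to 5068). Within cells of 5000 to 20000 UMIs 24 genes remained higher, among them 17 sterol enzymes, and 2 lower (Ggps1 and Srebf1), where 29.8% of all genes were higher and 30% lower. Fdps was then at 1.61, Idi1 at 1.61 and Srebf1 at -0.55. Scap, Scd1, Scd2, Tm7sf2 and Hsd17b7 were not called there. Depth stayed unequal in this restricted set. In Kmt2c KO the high cells had library medians of 11576 to 13036.5 UMIs and the low cells 8072.5 to 9956. In WT they were 14083 to 15548 and 10541 to 13545, while the ranges overlapped in Kmt2d KO. The difference of the cycling effect between genotypes was fitted as an interaction. None of the 31 genes passed it in any of the 3 pairs of genotypes, where 3.22%, 0.253% and 0.363% of all genes did. At an unadjusted p under 0.05 there were 2, 2 and 6 of the 31, beside 17.7%, 11.8% and 9.99% of all genes.

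**Figure D4:**
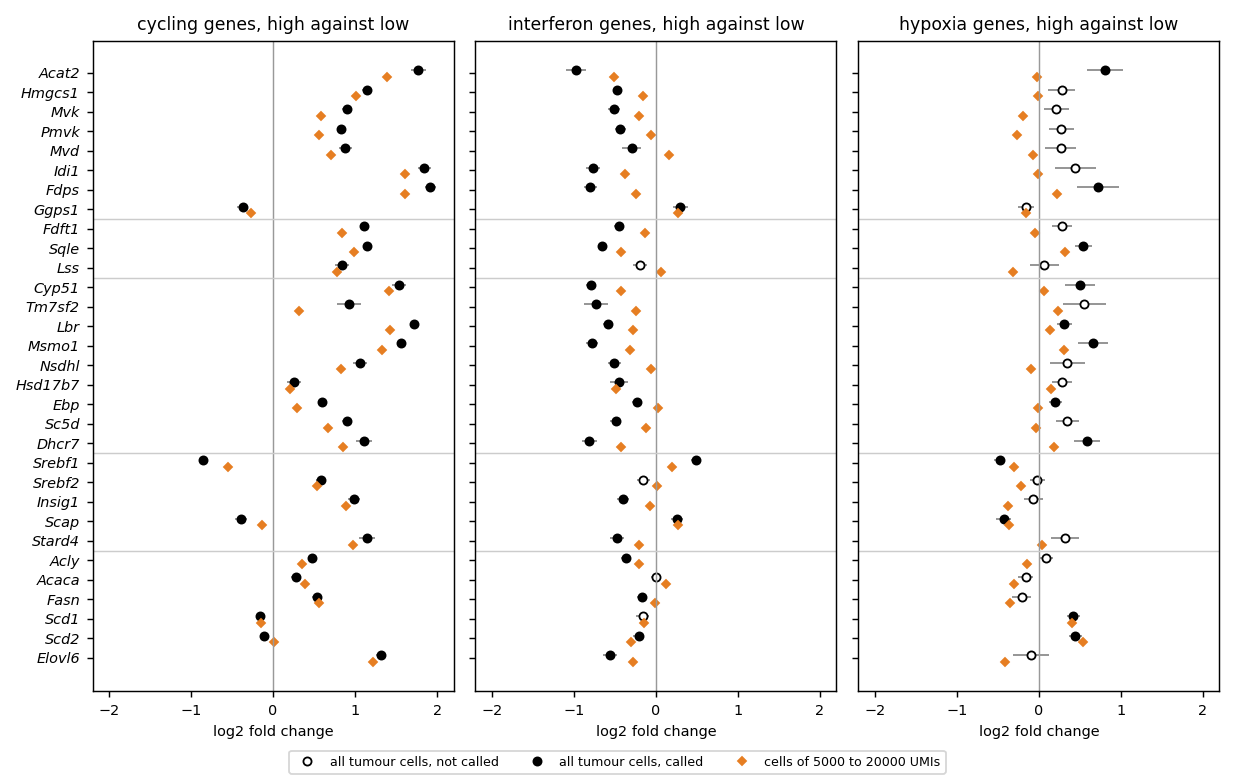
Log2 fold change of each gene between the tumour cells high and low for cycling, interferon-response and hypoxia-response genes within libraries, with circles for all tumour cells (filled where called, bars of 1 SE) and orange diamonds for cells of 5000 to 20000 UMIs. Nearly all sterol enzymes lie to the right in cycling-high cells in both sets, while in the interferon panel the diamonds lie closer to 0 than the circles.

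Interferon-high cells had less sterol enzyme RNA, and fewer of the 31 genes, as of all genes, were called among cells of 5000 to 20000 UMIs or with no cycling-list UMI. Between the highest and lowest 25% of cells for 14 interferon-response genes, 24 of the 31 genes were lower and 3 higher, where 60% of all genes were called, 30.5% lower and 29.5% higher. Of the sterol enzymes 18 were lower, led by Acat2 (-0.97 ± 0.12), Dhcr7, the last reductase (-0.81 ± 0.09), Fdps (-0.80 ± 0.07) and Cyp51 (-0.79 ± 0.07), and the sum of the 20 fell to 0.558 to 0.776 times its level in the low cells (0.518 to 0.731 times with TMM scaling). The 3 higher genes were Srebf1 (0.49 ± 0.06), Ggps1 (0.30 ± 0.09) and Scap (0.26 ± 0.08). The high cells were shallower (library medians of 6721 to 18917.5 UMIs, against 10490 to 29177.5) and held less cycling-list RNA (423 to 1113 CPM, against 1123 to 2012). In all 9 libraries they also had a higher median mitochondrial share (3.09 to 4.58%, against 2.33 to 3.34%) and less hypoxia-list RNA (627 to 1473 CPM, against 1141 to 4527), whose part in the fall was not tested. Within cells of 5000 to 20000 UMIs 9 genes were lower and 2 higher, where 14.8% of all genes were lower and 13.1% higher. Depth was not made equal there. In Kmt2c KO the high cells had library medians of 8119 to 9876 UMIs and the low cells 10600.5 to 12263, while these ranges overlapped in WT and in Kmt2d KO. Within cells with no cycling-list UMI 3 were called, beside 11.3% of all genes lower and 10.3% higher: Sqle, the squalene epoxidase (-0.28), and Scd2 (-0.28) were lower and Srebf1 (0.20) higher. Sqle, Srebf1 and Scd2 kept their call and direction in all 3 of these sets. By library, over all tumour cells, Sqle was lower and Srebf1 higher in the high cells of all 9. Scd2 was lower in 6, but higher in WT library 3 (0.22 on the log2 scale in plain CPM) and in Kmt2d KO libraries 1 and 3 (0.12 and 0.046), the last of which turned to -0.016 with TMM scaling.

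Srebf2 was the only one of the 31 whose interferon effect passed a test of its difference between Kmt2c KO and WT, and none passed for Kmt2d KO against WT or Kmt2c KO (0.453% and 0.0978% of all genes did). In WT it was at 83.6, 73.4 and 69.3 CPM in the low cells and at 49.4, 48.3 and 67.4 CPM in the high cells of libraries 1 to 3. In Kmt2c KO it was at 86.2, 61.2 and 71.1 CPM in the low and 86.6, 68.5 and 72.9 CPM in the high cells. It was lower in the high cells of all WT libraries, least so in library 3, and near level in the Kmt2c KO libraries (0.973 to 1.06 times the low cells with TMM scaling). The effect in Kmt2c KO minus that in WT was 0.55 ± 0.15 on the log2 scale (adjusted p = 0.0387, where 6.49% of all genes passed). Leaving out WT library 1 or 2, any Kmt2c KO library or Kmt2d KO library 1 ended the call, with adjusted p of up to 0.175 and differences of 0.41 to 0.57. It also ended within cells of 5000 to 20000 UMIs (0.55, adjusted p = 0.260) and in cells with no cycling-list UMI (0.65, adjusted p = 0.168), and held with the cells of each library split at the middle of their ranking (0.48, adjusted p = 0.00437). This interaction was fitted after the effects by library had been seen.

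In the hypoxia split the sterol enzymes varied between libraries of 1 genotype as well as between genotypes. Between the highest and lowest 25% of cells for the hypoxia-response genes, 10 of the 31 genes were higher and 2 lower over the 9 libraries, where 49.4% of all genes were called, 24.7% higher and 24.7% lower. Higher were Acat2, Fdps, Sqle, Cyp51, Lbr, Msmo1, Ebp, Dhcr7, Scd1 and Scd2, and lower were Srebf1 (-0.48 ± 0.07) and Scap (-0.43 ± 0.09). Within cells of 5000 to 20000 UMIs 3 of the 31 were higher and 6 lower, beside 15.1% and 17.8% of all genes. In cells with no cycling-list UMI 5 of 30 tested were higher and 3 lower, beside 18.9% and 17.5% of all genes. Scd1 at 0.42 ± 0.08 and Scd2 at 0.45 ± 0.08 held within cells of 5000 to 20000 UMIs (0.40 and 0.54) and within cells with no cycling-list UMI (0.48 and 0.70), and so did Sqle (0.54 ± 0.10, then 0.31 and 0.49). By library, in plain CPM, the rise was not uniform: Scd1 was lower in the hypoxia-high cells of WT library 1 (-0.31) and higher in the other 8 libraries, and Scd2 was lower in those of WT libraries 2 and 3 (-0.074 and -0.20) and higher in the other 7. Sqle was lower in WT library 2 (-0.046) and higher in the other 8. With TMM scaling, which raised the hypoxia-high cells by 0.13 to 0.26 on the log2 scale over the 9 libraries, Scd1 remained lower in WT library 1 (-0.16), whereas Scd2 in WT libraries 2 and 3 (0.055 and 0.0029) and Sqle in WT library 2 (0.082) came out above 0. Scd1, an enzyme that needs oxygen to place its double bond, was higher over the 9 libraries both in the hypoxia-high cells and in Kmt2c KO, the genotype with the highest hypoxia-list level. The part of the hypoxia response in the Kmt2c KO level was not tested.

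In the sum of the 20 sterol enzymes, hypoxia-high cells had 1.55, 1.09 and 1.89 times the level of hypoxia-low cells in WT libraries 1 to 3 and 1.48, 0.989 and 2.18 times in the Kmt2d KO libraries. In Kmt2c KO the ratios were 0.912, 0.657 and 1.04. In plain CPM every WT library was above every Kmt2c KO library. With TMM scaling the ratios were 1.73, 1.19 and 2.18 in WT, 1.65, 1.08 and 2.41 in Kmt2d KO and 1.01, 0.784 and 1.25 in Kmt2c KO, where the third Kmt2c KO library was above the second of WT and only the second Kmt2c KO library was below 1. Gene by gene, the effect in Kmt2c KO minus that in WT was below 0 for 18 of the 20, with a median of -0.75 on the log2 scale, beside 0.02 over all genes tested. Of these, 9 were lower and 1 higher at an unadjusted p under 0.05 (13.8% of all genes were lower and 13.9% higher), and 1 passed in each direction, where 5.48% of all genes passed lower and 5.33% higher.

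**Figure D5:**
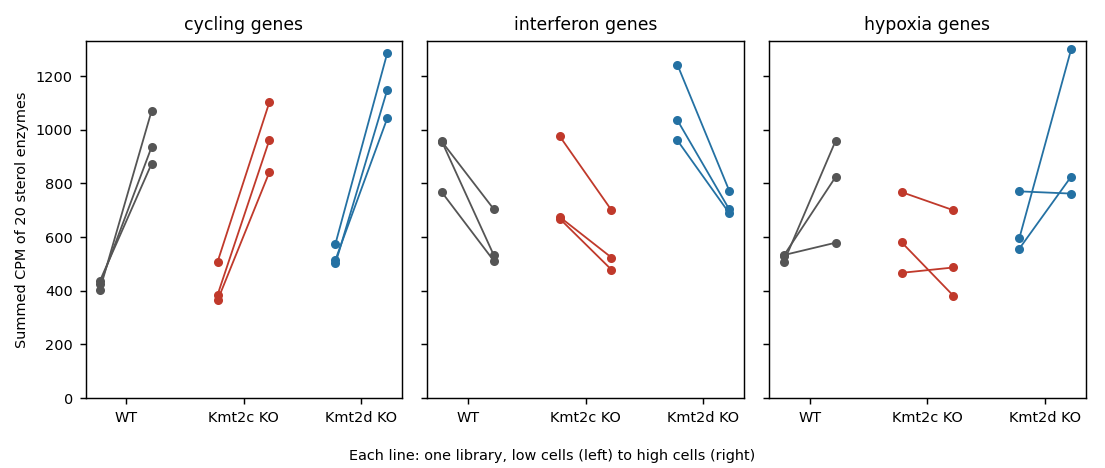
Summed CPM of the 20 sterol enzymes in the low cells (left end of each line) and high cells (right end) for cycling, interferon-response and hypoxia-response genes, with 1 line per library, grouped by genotype. All 9 lines rise for cycling and all 9 fall for the interferon response; for hypoxia the WT lines rise, 2 of the 3 Kmt2d KO lines rise, and the Kmt2c KO lines go from 768 to 700, from 581 to 382 and from 467 to 487 CPM. With TMM scaling, which is not drawn, the first Kmt2c KO line and the second Kmt2d KO line turn to slight rises (1.01 and 1.08 times).

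Idi1 was the gene that passed lower. It was at 7.65, 13.1 and 11.2 CPM in the hypoxia-low cells and at 26.7, 15.8 and 29.8 CPM in the hypoxia-high cells of WT libraries 1 to 3, and at 22.1, 13.8 and 11.8 CPM in the low and 15.4, 5.80 and 8.81 CPM in the high cells of Kmt2c KO. The WT sets held 108, 222 and 86 cells at each end, and the smallest hypoxia-low sum of any library was 1511155 UMIs. The WT levels of this gene in the low cells thus rest on few UMIs. Idi1 rose with the split in all 3 WT libraries and fell in all 3 Kmt2c KO libraries, in plain CPM and with TMM scaling, a difference of -1.70 ± 0.47 on the log2 scale (adjusted p = 0.0333). Hsd17b7, a sterol ketoreductase, passed in the other direction, at 0.84 ± 0.23 (adjusted p = 0.0314). In WT it was at 17.7, 17.5 and 25.8 CPM in the low and 14.1, 13.3 and 20.1 CPM in the high cells, and in Kmt2c KO at 14.0, 9.35 and 8.59 CPM in the low and 15.2, 13.7 and 13.7 CPM in the high cells. None of the 31 genes passed in edgeR for Kmt2d KO against WT (0% of all genes passed; 336 were higher and 285 lower at an unadjusted p under 0.05, 5.47% in all, none of the 31 among them) or against Kmt2c KO (0.511% of all genes), where 14 sterol enzymes were higher at an unadjusted p under 0.05 (10.5% of all genes).

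The cells compared in the hypoxia split were not alike in other measures, nor between genotypes. In all 9 libraries the high cells were deeper (library medians of 8909 to 31280.5 UMIs, against 6858 to 16920.5), with a lower median mitochondrial share (2.38 to 3.90%, against 3.15 to 4.90%) and less interferon-list RNA (369 to 2728 CPM, against 535 to 5892). The part of these measures in the hypoxia effects was not tested beyond the restriction to 5000 to 20000 UMIs. The high cells had 4751 to 7678 CPM of hypoxia-list RNA in Kmt2c KO, 2207 to 2715 CPM in WT and 1718 to 3947 CPM in Kmt2d KO. Their cycling-list RNA was 932 to 1262 CPM in WT, against 526 to 640 CPM in the low cells. In Kmt2c KO it went from 1119 in the low to 1079 CPM in the high cells of library 1, from 993 to 355 in library 2 and from 984 to 854 in library 3, where the changes of libraries 1 and 3 are smaller than the shift that TMM scaling brings. The cycling level thus rose with the split in WT and fell by more than that shift only in the second Kmt2c KO library, and its part in the difference was not tested. Within cells with no cycling-list UMI the differences were -1.24 for Idi1 (adjusted p = 0.517) and 0.68 for Hsd17b7 (adjusted p = 0.521), and within cells of 5000 to 20000 UMIs they were -1.48 and 0.68 (adjusted p = 0.138 and 0.356). With the cells of each library split at the middle of their ranking they were smaller, at -0.73 and 0.27 (adjusted p = 0.106 and 0.283). The direction stayed and both calls ended in each of these 3 settings. The call for Idi1 also ended without Kmt2c KO library 1 or 2 or WT library 1 or 3, and that for Hsd17b7 without Kmt2c KO library 2 or 3 or any WT library.

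Outside the tumour cells, these genes were compared in cells with no H2BMc and no Krt8 UMI and with at least 3 endothelial, macrophage, or T and NK markers. The gates gave 29 to 68 endothelial cells a library and at least 20 macrophages in 8 libraries, and WT library 1 had 18 macrophages and was left out. Of the 31 genes, 19 passed the filter on low counts in the joint fit of these classes, with the library as a block. Several did so through the tumour cells alone, so how many of the 19 differed is fixed in part by the filter and is no result. Scd1 had 3 UMIs in all endothelial cells together, at 0 to 4.21 CPM a library, and 16 in the macrophages, at 0 to 18.3 CPM, against 35.3 to 47.8 CPM in tumour cells. Sqle had 23 and 28 UMIs in the same classes.

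Tests are given for the 6 genes with enough endothelial and the 5 with enough macrophage UMIs to pass the filter within that class, a choice that favours genes with high levels there. Against endothelial cells 69.9% of all genes were called, 36.2% higher and 33.7% lower in tumour cells. Fdps was higher in tumour cells by 2.45 ± 0.14 on the log2 scale and Scd2 by 0.65 ± 0.16, whereas Stard4 (-1.12 ± 0.19), Acly (-1.08 ± 0.14), Ebp, the sterol isomerase (-0.79 ± 0.16) and Lbr (-0.46 ± 0.15) were lower, with the highest adjusted p, for Lbr, at 0.00639. Acly was at 69.1 to 157 CPM in the endothelial cells and at 47.4 to 68.8 CPM in tumour cells. Against macrophages 68.2% of all genes were called, 36.8% higher and 31.5% lower. Fdps was higher (1.65 ± 0.15, adjusted p = 1.6e-10) and Ebp again lower (-1.02 ± 0.18, adjusted p = 1.14e-05) in tumour cells. Hmgcs1 (0.24 ± 0.25), Srebf2 (0.19 ± 0.21) and Acly (-0.0027 ± 0.19) did not pass. Free RNA of tumour cells can add to the counts of the gated cells, and whether it did was not tested. T and NK cells reached 20 in 3 libraries only, with levels of 80.8 to 132 CPM for Srebf2 and 99.2 to 177 CPM for Lbr and with no test.

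Between genotypes, 6 of the 31 genes could be tested in the endothelial cells (Fdps, Lbr, Ebp, Stard4, Acly and Scd2) and 5 in the macrophages (Hmgcs1, Fdps, Ebp, Srebf2 and Acly). None passed in any comparison, where 5.73% of all genes passed in endothelial cells and 3.17% in macrophages for Kmt2c KO against WT, 0.0372% and 0.36% for Kmt2d KO against WT, and 0.0744% and 0.247% for Kmt2d KO against Kmt2c KO. At an unadjusted p under 0.05 there was 1, Acly in endothelial cells, at -0.54 ± 0.25 on the log2 scale for Kmt2c KO against WT (adjusted p = 0.233), where 8.65% of all genes were lower. With at least 2 gate markers, which admits more cells, 12 of the 31 could be tested and 2 were called in that comparison, Fdps higher (1.41 ± 0.32, adjusted p = 0.00793, beside 0.16 ± 0.44 and adjusted p = 0.878 with the main gate) and Acly lower (-0.89 ± 0.24, adjusted p = 0.0228), where 7.71% of all genes were higher and 5.37% lower. The looser gate took the cells of libraries 1 to 3 from 48, 38 and 29 to 68, 59 and 42 in Kmt2c KO, but only from 46, 68 and 50 to 51, 70 and 52 in WT. Fdps is higher in tumour than in endothelial cells, as given above, and the part of the added cells in its call was not tested. The sums behind the main gate hold 85 UMIs for Fdps and 318 for Acly over all endothelial cells.

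Genes next to the pathway gave some further calls in tumour cells, to be read against the 19% of all genes called in Kmt2c KO against WT (10.2% higher and 8.73% lower). Of 19 other genes linked to SREBP or fatty acid handling, 2 were called in Kmt2c KO against WT: Insig2, the second SCAP retention gene, was higher (0.49 ± 0.09, adjusted p = 0.00728), and Fabp5, a fatty acid carrier, was lower (-1.08 ± 0.16, adjusted p = 0.0021). Of 12 genes of sterol export, esterification and the sterol-sensing LXR factors, 2 were called, both higher: Abcg1, a sterol exporter (1.11 ± 0.29, adjusted p = 0.0229), and Npc2, which hands cholesterol out of the lysosome (0.84 ± 0.12, adjusted p = 0.0021). Of 13 fatty acid oxidation genes tested, 3 were called, all lower: Acaa2 (-1.02 ± 0.19, adjusted p = 0.0066), Hadhb (-0.45 ± 0.08, adjusted p = 0.0057) and Acadm (-0.43 ± 0.09, adjusted p = 0.0092). For Kmt2d KO against WT and against Kmt2c KO no gene of these 3 lists was called. All calls in these lists are from the main fit, and whether they hold under the other settings is not given.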

How the data were processed

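Tumour suspensions were profiled with the 10x 5′ kit. Per the labels and the study's methods, the authors ran Cell Ranger 7.0.1 against mm10 and joined the 9 libraries, and the deposited values are UMI counts per gene and cell. The annotation, and whether depth was equalised on joining, are not stated in them. Genotype came from the letters C, D and X of the aggregation table, read through the study's comparison names.

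Cells with over 500 and under 7500 genes and under 15% mitochondrial UMIs were kept. No doublet caller was run; cells with over 1 marker of another class left the tumour gate. Barcodes shared by 2 libraries made up 0.213 to 2.28% of the smaller. Counts were summed per library and tested with edgeR 4.0.16 (R 4.3.3; TMM, filterByExpr, quasi-likelihood test, all 9 libraries in 1 fit; called at a Benjamini-Hochberg adjusted p under 0.05), since cells are not replicates; DESeq2 1.42.0 was an alternative. P-values measure the spread between tumours of 1 pool. States and classes were fitted with the library as a block. Scripts were tested on simulated data. The members and lists were chosen with earlier results of these data known. Values per library are given for genes called in a tumour comparison, the regulators, and Hmgcs1, Acly and Fasn; Lss, Fdps, Stard4 and the genes of the interaction were added after their values were seen. Promoter sequences are RefSeq's for GRCm38.p6. Members whose RefSeq span overlaps another coding gene are Acaca, Fdft1, Srebf1 and Tm7sf2.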

Additional observations from a re-analysis of the deposited data

Results flagged for a closer look

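For 3 genes the difference between high and low cells of a library was itself different in Kmt2c KO and WT tumours, by the edgeR interaction of state and genotype with the library as a block. This fit was chosen after the effects by library had been seen. For Idi1 the hypoxia effect in Kmt2c KO minus that in WT was -1.70 on the log2 scale (adjusted p = 0.0333), with lower levels in the hypoxia-high cells of 3 of 3 Kmt2c KO libraries and higher levels in 3 of 3 WT libraries. For Hsd17b7 it was 0.84 (adjusted p = 0.0314), with the opposite directions in the same libraries. For Srebf2 the interferon effect differed by 0.55 (adjusted p = 0.0387). Of all genes tested, 10.8% passed the same hypoxia interaction and 6.49% the same interferon interaction. Such calls were thus no more frequent among the genes described here than over all genes. All 3 calls ended within cells of 5000 to 20000 UMIs, in cells with no cycling-list UMI and when some single libraries were left out, and those of Idi1 and Hsd17b7 also with the cells of each library split at the middle of their ranking. The causes were not tested.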

How the results depend on the processing

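No paired analysis was possible because the libraries carry no replicate number that the sample titles share. In tumour cells the number of the 31 genes called for Kmt2c KO against WT was 5, and 2 with Krt8-positive cells, 3 with at least 2 H2BMc UMIs, 2 within 5000 to 20000 UMIs, 2 with no cycling-list UMI and 1 to 6 when 1 library was left out. Of all genes, 19% were called in the main fit, 8.18% within 5000 to 20000 UMIs and 14.9% with no cycling-list UMI. When 1 library was left out that share ran from 9.01% to 29.2%. The shares in Krt8-positive cells and with at least 2 H2BMc UMIs are not given, so those counts are no result about the 31 genes. For Kmt2d KO against WT the number called was 0, and 1 with DESeq2, 1 with no low-count filter and 0 to 1 when 1 library was left out. For Kmt2d KO against Kmt2c KO it was 0, and 2 with DESeq2, 3 with no low-count filter and 0 to 11 when 1 library was left out. It rose from 0 to 2 in endothelial cells (Kmt2c KO against WT) with at least 2 gate markers, where the share of all genes rose from 5.73% to 13.1%. Against macrophages it went from 9 of 19 tested to 17 of 31 with no low-count filter, where 68.2% and 33.1% of all genes were called; these counts depend on the filter and are no result. For the interferon split it fell from 27 to 11 within 5000 to 20000 UMIs and to 3 with no cycling-list UMI, beside 60%, 27.9% and 21.6% of all genes, 2 settings chosen after seeing the data, as were all interaction fits. Over all genes, the restriction to 5000 to 20000 UMIs took the counts of the 3 comparisons from 2644 to 1069, from 290 to 64 and from 9 to 0, and when 1 library was left out they ran from 1279 (without WT library 2) to 4113, from 102 (without WT library 1) to 800 and from 0 to 2698, each highest without Kmt2d KO library 2. For Kmt2d KO against WT and against Kmt2c KO, DESeq2 gave 678 and 534, the fit with no low-count filter 564 and 607, that with only the groups compared 177 and 0, and cells with no cycling-list UMI 125 and 121. The count for Kmt2d KO against Kmt2c KO was also 0 with RLE scaling, 0 in Krt8-positive cells, 4 with no mitochondrial limit and 163 with at least 2 H2BMc UMIs.

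Of 630 values of named genes under other settings, 540 kept direction and side of the threshold, 56 lost a call, 12 gained 1 and 22 changed direction, 1 of these 22 of a called result. Most of the 36 results behind these values were not called in the main fit and so had no call to lose. For Kmt2c KO against WT the log2 values that changed direction were, in Krt8-positive cells, 0.058 (Insig1) and 0.017 (Hmgcs1). Within 5000 to 20000 UMIs they were -0.086 (Scap), -0.16 (Srebf1), 0.28 (Insig1), 0.22 (Hmgcs1) and 0.0075 (Acly), and with no cycling-list UMI 0.038 (Hmgcs1). For Kmt2d KO against WT, Acat2 went to 0.056 in Krt8-positive cells, 0.19 within 5000 to 20000 UMIs, 0.34 with no cycling-list UMI and -0.25 to 0.12 when 1 library was left out (above 0 without Kmt2d KO library 1 or 2 or WT library 3). Tm7sf2 ran from -0.071 to 0.16 when 1 library was left out (below 0 without Kmt2d KO library 3 or WT library 1), Scap to -0.21 within 5000 to 20000 UMIs and -0.14 with no cycling-list UMI, and Srebf1 to -0.057 within 5000 to 20000 UMIs. For Kmt2d KO against Kmt2c KO, Fasn ran from -0.0018 (without Kmt2d KO library 2) to 0.18 when 1 library was left out and was -0.038 within 5000 to 20000 UMIs, and Srebf1 to 0.11 there. The cause was not tested.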
